A study of Mus musculus with 18 samples.

Results

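The kynurenine pathway breaks down tryptophan, and the 10 genes described here follow it through the liver. Tdo2, Ido1 and Ido2 encode the enzymes that open the tryptophan ring, and Afmid, Kmo, Kynu and Haao those that carry kynurenine onward. Acmsd and Qprt encode the enzymes on either side of the branch that ends the pathway, and Nampt recycles nicotinamide to NAD. The 10 genes are part of the 55385 in the deposited count and RPKM tables, taken by gene name over all 18 libraries. The set was put together with results of these data in view. Acmsd was selected on its counts in Dp16-2xIFNRs against wild-type livers, where it had passed the test, so its difference in that contrast is given as a description, with no test. The other members were chosen by their place in the pathway.

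Polyadenylated RNA was sequenced from the livers of Dp16-2xIFNRs, Dp16 and wild-type C57BL/6J mice, with 6 libraries per genotype, 3 male and 3 female, at 17.1 to 18.0 weeks of age; no treatment is listed. Dp16 mice carry an extra copy of a segment of mouse chromosome 16 related to human chromosome 21. Dp16-2xIFNRs mice carry the same segment with the dosage of the interferon receptor genes in it set back to normal, as the labels describe it. The labels list separate samples and do not say how many litters they came from, so p-values measure the spread between these samples. Some libraries of different genotypes share a number in their sample description, and the meaning of that number is not stated.

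Total counts ran from 38236222 to 59923315 per library. The receptor levels followed the labels: Ifnar1, which encodes part of the receptor for interferon alpha and beta, averaged 23.1 ± 3.15 CPM in Dp16-2xIFNRs, 33.6 ± 7.05 CPM in Dp16 and 22.3 ± 2.32 CPM in wild-type livers (SD, n = 6 each; CPM is the count relative to library size, scaled by TMM factors). Summed hepatocyte markers, 5 genes, spanned 82100 to 133000 CPM in Dp16-2xIFNRs, 75400 to 119000 CPM in Dp16 and 83700 to 124000 CPM in wild-type livers. Summed kidney markers stayed at or below 0.415 CPM in all 18 libraries, which bears on Acmsd because kidney also makes it. Dp16 libraries 4 and 5, a male and a female, had the lowest and the highest TMM factor of the 18 (0.803 and 1.34). In bulk liver RNA, fewer cells of a type and less RNA per cell cannot be told apart.

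In hepatocytes, most tryptophan that is not used for protein enters this pathway through tryptophan 2,3-dioxygenase, the product of Tdo2, which glucocorticoids and tryptophan itself are known to induce. The pathway ends at a branch. The unstable intermediate ACMS closes by itself to quinolinic acid, which Qprt turns into a precursor of NAD, unless the decarboxylase encoded by Acmsd first directs it towards glutarate and full oxidation. The ratio of these enzymes is therefore known to bear on how much tryptophan becomes NAD.

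The members lie on several chromosomes, and none lies on chromosome 16. In GENCODE M21 (GRCm38), Acmsd (ENSMUSG00000026348) spans chr1:127729413-127767978 on the plus strand, with 11 merged exons. Qprt (ENSMUSG00000030674) spans chr7:127107114-127122226 on the minus strand, with 6. Ido1 and Ido2 are neighbours on chromosome 8, and Kmo shares chromosome 1 with Acmsd at chr1:175620381-175662116.

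RefSeq promoters (GRCm38.p6, 250 bases before and 50 after the start) were searched for 6 of the 10 members: Tdo2, Afmid, Kmo, Haao, Qprt and Nampt. That of Qprt is shown because this enzyme sets the NAD side of the branch. Capitals mark its one match to the 6 motifs searched on both strands. It lies at chr7:127121980-127122279 on the minus strand and holds TTCNNNGAA, the STAT (GAS) site, from position -19, counted from the start site.
Qprt: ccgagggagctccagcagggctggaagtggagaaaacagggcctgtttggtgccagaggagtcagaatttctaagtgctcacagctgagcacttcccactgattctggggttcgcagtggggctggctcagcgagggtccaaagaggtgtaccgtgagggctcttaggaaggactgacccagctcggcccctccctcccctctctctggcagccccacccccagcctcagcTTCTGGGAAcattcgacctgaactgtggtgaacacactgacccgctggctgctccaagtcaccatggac
Of 32851 promoters of the same length, 8.3% hold TTCNNNGAA. The other motifs were AGGTCA (nuclear receptor hexamer, in 16.3% of promoters), CACGTG (E-box, 7.15%), AGAACA (glucocorticoid receptor hexamer, 19%), GTTAAT (HNF1 element, 7.1%) and the core promoter box TATAAA (13.6%). AGGTCA occurred in the promoters of Tdo2, Haao and Nampt. AGAACA occurred in those of Kmo (from position 15, after the start site) and Haao (-164). GTTAAT occurred in that of Haao (-41) and TATAAA in that of Tdo2, as far before the start site as -229. The Afmid promoter held none of the 6. A match describes letters in a window and not a bound site.

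On the scale that accounts for gene length, RPKM, the pathway genes ranged widely. Over all 18 libraries, Haao averaged 470 ± 99.8 RPKM and Tdo2 294 ± 99.5 RPKM (SD, n = 18). Qprt followed at 93.9 ± 13.3 RPKM, Kmo at 56.0 ± 10.7 RPKM, Kynu at 33.4 ± 5.72 RPKM and Afmid at 21.3 ± 4.61 RPKM. Ido2 averaged 19.4 ± 7.45 RPKM, Acmsd 15.7 ± 9.96 RPKM and Nampt 11.5 ± 3.59 RPKM. Each neighbouring pair in this order overlapped in range except Tdo2 and Qprt, where the lowest Tdo2 library (135 RPKM) lay above the highest Qprt library. Acmsd had the widest relative spread of the 9: it averaged 20.8 RPKM in Dp16-2xIFNRs, 19.1 RPKM in Dp16 and 7.27 RPKM in wild-type livers.

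Ido1, the dioxygenase that interferon gamma induces in many cells, had 0 counts in each of the 18 libraries. Against 850202623 counts in all, a count of 0 allows up to 3 counts, or 0.00353 CPM over the series, and up to 0.0785 CPM in the library with the highest limit, which covers counting error only. The other 9 members passed the filter on low counts and were tested.

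Of these 9 members, Acmsd passed the test in Dp16-2xIFNRs against wild-type livers, which is how it was chosen, and no other did. Over all genes tested, 0.0986% passed in this comparison (15 of 15208, edgeR quasi-likelihood test, Benjamini-Hochberg adjusted p under 0.05). In Dp16 against wild-type, 0 of 9 members passed with edgeR and 2 had an unadjusted p under 0.05, while 0.0395% of all genes passed. DESeq2 called 1 member there, Acmsd, and limma-voom called 0. In Dp16-2xIFNRs against Dp16, 0 of 9 passed with edgeR, DESeq2 and limma-voom alike, 1 had an unadjusted p under 0.05, and 0% of all genes passed (1418 at an unadjusted p under 0.05, 7 with DESeq2). The first 2 of these comparisons share the 6 wild-type libraries. The members' median log2 fold change was 0.10 in Dp16-2xIFNRs and -0.12 in Dp16 livers, both against wild-type, beside medians over all genes of -0.02 and 0.01.

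**Figure D1:**
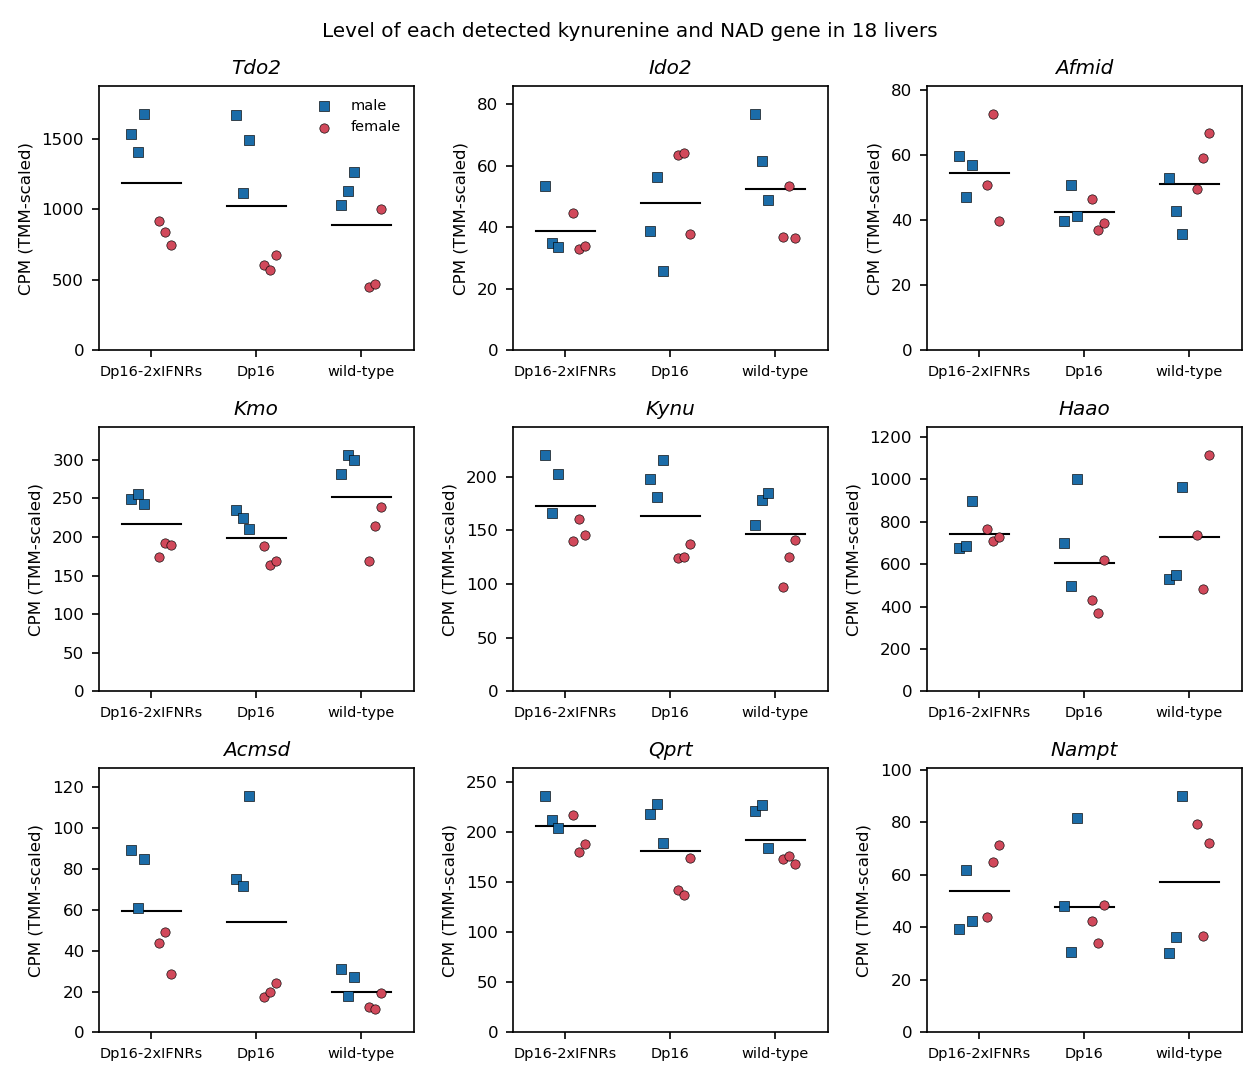
Level in CPM, scaled by TMM factors, of the 9 detected members in each of 18 livers, by genotype and sex (squares male, circles female, bars the mean of 6 libraries, each axis from 0). Acmsd lies between 28.6 and 89.2 CPM in Dp16-2xIFNRs livers and between 11.5 and 31.2 CPM in wild-type livers, while the Qprt ranges overlap in all 3 genotypes.

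Acmsd had a higher median in both chromosome 16 genotypes than in wild-type livers. It had a lowest, median and highest value of 28.6, 55.0 and 89.2 CPM in Dp16-2xIFNRs livers, of 17.3, 47.9 and 116 CPM in Dp16 livers and of 11.5, 18.4 and 31.2 CPM in wild-type livers. All but 1 of the Dp16-2xIFNRs libraries lay above every wild-type library, and 3 of 6 Dp16 libraries did, all of them male. The log2 fold change was 1.55 in Dp16-2xIFNRs against wild-type (2.93-fold, SE 0.254), as a description. In Dp16 against wild-type it was 1.19 (2.28-fold, SE 0.255), with an adjusted p of 0.138 by edgeR. That comparison uses the same wild-type libraries on which Acmsd was chosen, so it is no independent check. It did not pass the threshold with edgeR, and it did with DESeq2 (adjusted p = 0.00527) and with limma on log2 RPKM plus 0.1 (adjusted p = 0.0439) or plus 1 (adjusted p = 0.0423). Dp16-2xIFNRs against Dp16 livers gave 0.37 (SE 0.251), as a description. It was 0.98 in females alone (SE 0.269) and -0.16 in males alone (SE 0.288), a value smaller in size than its SE. The male medians were 84.7 CPM in Dp16-2xIFNRs and 75.2 CPM in Dp16. A difference between the sexes was not tested for this comparison. All 3 Dp16-2xIFNRs females lay above all 3 Dp16 females.

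The spread of Acmsd within the chromosome 16 genotypes followed sex. In Dp16-2xIFNRs livers, males had 60.9, 84.7 and 89.2 CPM and females 28.6, 43.9 and 49.0 CPM. In Dp16 livers, males had 71.5, 75.2 and 116 CPM and females 17.3, 19.8 and 24.2 CPM. In wild-type livers, males had 17.8, 27.1 and 31.2 CPM and females 11.5, 12.6 and 19.1 CPM. Males of both chromosome 16 genotypes lay above all wild-type males, and Dp16-2xIFNRs females above all wild-type females, whereas Dp16 and wild-type females overlapped. These separations are a description, with no share of all genes beside them. In Dp16 against wild-type, the log2 fold change was 1.79 in males (3.45-fold, SE 0.291) and 0.51 in females (1.42-fold, SE 0.284).

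The difference between those sexes was itself tested with a genotype by sex term. For Dp16 the term was 1.28 for Acmsd (SE 0.402, unadjusted p = 0.00547, adjusted p = 0.582, edgeR), and for Dp16-2xIFNRs it was 0.13 (SE 0.4, adjusted p = 1). Neither passed. Of the 9 members, 0 passed either term with edgeR, DESeq2 or limma-voom, with 2 and 0 members at an unadjusted p under 0.05 for Dp16 and Dp16-2xIFNRs. Over all genes, 0% passed the Dp16 term and 0% the Dp16-2xIFNRs term with edgeR, while 1198 and 340 genes had an unadjusted p under 0.05 and DESeq2 called 52 and 10. The other member with a low unadjusted p for Dp16 was Ido2, at -1.01 (SE 0.424, unadjusted p = 0.0288, adjusted p = 0.582).

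**Figure D2:**
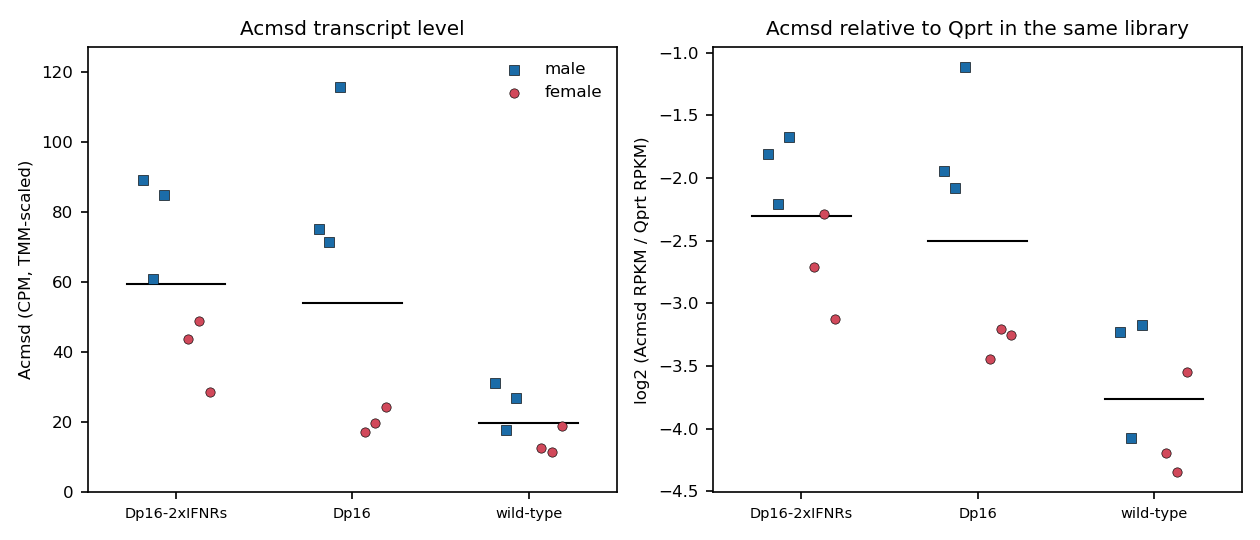
Left, Acmsd in CPM in each library; right, log2 of Acmsd RPKM over Qprt RPKM in the same library, by genotype and sex (squares male, circles female, bars the mean of 6 libraries). The wild-type ratios lie between -4.35 and -3.17, the Dp16 female ratios between -3.44 and -3.20, and the Dp16-2xIFNRs ratios between -3.12 and -1.67.

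Qprt, the enzyme on the NAD side of the branch, did not pass in either comparison with wild-type. It had a lowest, median and highest value of 180, 208 and 235 CPM in Dp16-2xIFNRs, of 137, 182 and 227 CPM in Dp16 and of 168, 180 and 227 CPM in wild-type livers. These ranges overlap almost wholly, with log2 fold changes of 0.11 (SE 0.122, adjusted p = 0.786) and -0.09 (SE 0.122, adjusted p = 0.999) against wild-type by edgeR. Set per Acmsd RPKM, Qprt measured 5.24 ± 2.07 in Dp16-2xIFNRs, 6.64 ± 3.65 in Dp16 and 14.3 ± 4.85 in wild-type livers (SD, n = 6 each). This ratio rests on the choice of Acmsd and has no test. It was 3.77 ± 0.748 in male and 6.71 ± 1.93 in female Dp16-2xIFNRs livers, 3.41 ± 1.09 in male and 9.87 ± 0.888 in female Dp16 livers, and 11.8 ± 4.44 in male and 16.8 ± 4.51 in female wild-type livers (SD, n = 3 each).

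The enzymes after Acmsd on the way to glutarate and acetyl-CoA did not pass. All 8 of that list were tested and 0 passed in either genotype against wild-type with edgeR, DESeq2 or limma-voom, with 1 in each at an unadjusted p under 0.05. Aldh8a1, named here for its place as the dehydrogenase that takes the product of Acmsd, had log2 fold changes of 0.06 in Dp16-2xIFNRs (SE 0.126) and -0.01 in Dp16 (SE 0.126). Dhtkd1, a subunit of a 2-oxoadipate dehydrogenase, had -0.71 (SE 0.27, adjusted p = 0.491) and -0.02 (SE 0.27, adjusted p = 0.999). The list's median was -0.06 in Dp16-2xIFNRs and -0.11 in Dp16.

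The entry enzyme Tdo2 had a lowest, median and highest value of 744, 1163 and 1674 CPM in Dp16-2xIFNRs, of 570, 895 and 1672 CPM in Dp16 and of 452, 1016 and 1266 CPM in wild-type livers. The 3 Dp16-2xIFNRs males lay above all wild-type males, and the females overlapped. The share of all genes that part 3 libraries from 3 in this way is not given here, so this is a description. Its log2 fold changes of 0.40 (SE 0.183, adjusted p = 0.563) and 0.14 (SE 0.183, adjusted p = 0.999) did not pass with edgeR. Ido2, a paralog of Ido1 with weak activity on tryptophan, had 32.9, 34.4 and 53.3 CPM in Dp16-2xIFNRs, 25.7, 47.6 and 64.2 CPM in Dp16 and 36.6, 51.2 and 76.7 CPM in wild-type livers. Its log2 fold changes were -0.42 (SE 0.233, adjusted p = 0.617) and -0.12 (SE 0.234, adjusted p = 0.999).

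In the middle of the pathway, Kmo, the mitochondrial hydroxylase of kynurenine, had 175, 217 and 256 CPM as lowest, median and highest value in Dp16-2xIFNRs, 163, 199 and 235 CPM in Dp16 and 169, 260 and 306 CPM in wild-type livers. Males of both chromosome 16 genotypes lay below all 3 wild-type males: 243 to 256 CPM in Dp16-2xIFNRs, 210 to 235 CPM in Dp16 and 282 to 306 CPM in wild-type. This too is a description, with no share of all genes beside it. The fits gave -0.20 (SE 0.115, adjusted p = 0.62) and -0.33 (SE 0.115, unadjusted p = 0.00926, adjusted p = 0.668), which did not pass with edgeR.

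Kynu, the kynureninase that cleaves kynurenine and 3-hydroxykynurenine, had 140, 164 and 220 CPM in Dp16-2xIFNRs, 125, 159 and 216 CPM in Dp16 and 97.5, 148 and 185 CPM in wild-type livers. Its log2 fold changes were 0.24 (SE 0.126, adjusted p = 0.605) and 0.15 (SE 0.126, adjusted p = 0.999). Haao, which makes ACMS from 3-hydroxyanthranilate, had 678, 719 and 897 CPM in Dp16-2xIFNRs, 372, 559 and 1003 CPM in Dp16 and 481, 644 and 1113 CPM in wild-type livers. Its log2 fold changes were 0.02 (SE 0.237, adjusted p = 0.983) and -0.29 (SE 0.239, adjusted p = 0.999), and both genes overlapped between each chromosome 16 genotype and wild-type. In females, both lay higher in all 3 Dp16-2xIFNRs than in all 3 Dp16 livers on the CPM scale. The ranges were 140 to 161 over 125 to 137 CPM for Kynu and 709 to 765 over 372 to 620 CPM for Haao. In RPKM the Kynu ranges overlapped, at 28.18 to 33.89 in Dp16-2xIFNRs and 28.96 to 35.15 in Dp16 females. Haao stayed apart, at 489.9 to 509.4 over 331.3 to 452.1 RPKM. In CPM, Acmsd, Tdo2 and Qprt also lay higher in all Dp16-2xIFNRs than in all Dp16 females. In RPKM, Acmsd stayed apart, at 10.21 to 18.13 over 7.071 to 9.741. The RPKM ranges of these females overlapped for Tdo2 (210.5 to 257.7 and 196.4 to 222.1) and for Qprt (88.13 to 101.7 and 76.87 to 89.52). These separations are a description, with no share of all genes beside them.

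Afmid, the formamidase that releases kynurenine, had 39.9, 53.9 and 72.6 CPM in Dp16-2xIFNRs, 37.0, 40.5 and 51.0 CPM in Dp16 and 35.7, 51.3 and 66.7 CPM in wild-type livers. Its counts are uncertain. In GENCODE M21, 44.2% of its exonic length lies in exons of Gm20708 on the same strand, and the treatment of shared reads is not given. The deposited counts are labelled with a later GENCODE release, so the shared part may differ in the gene models counted. Afmid was the member with an unadjusted p under 0.05 in Dp16-2xIFNRs against Dp16 by edgeR (log2 0.36, SE 0.165, adjusted p = 0.532). Against wild-type it had 0.10 (SE 0.165) in Dp16-2xIFNRs and -0.26 (SE 0.165) in Dp16 livers. Nampt, the rate-limiting enzyme of the salvage route to NAD, had 39.3, 53.0 and 71.2 CPM in Dp16-2xIFNRs, 30.5, 45.3 and 81.8 CPM in Dp16 and 30.1, 54.4 and 89.9 CPM in wild-type livers. Its log2 fold changes against wild-type were -0.09 (SE 0.289) and -0.26 (SE 0.29). The ranges of both genes overlapped in all 3 genotypes.

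**Figure D3:**
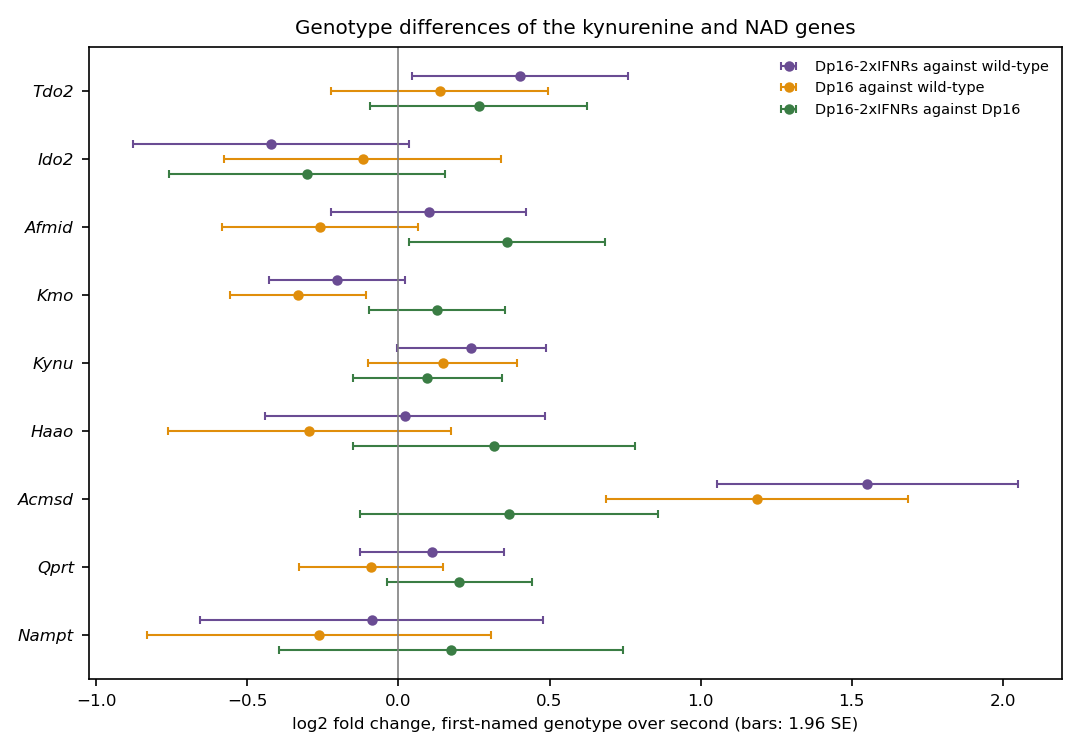
Log2 fold change of the 9 tested members in 3 genotype comparisons, first-named genotype over second, with bars of 1.96 SE from the edgeR fit. Acmsd lies at 1.55 and 1.19 against wild-type, and the other members lie between -0.42 and 0.40.

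The rest of NAD metabolism showed no gene past the threshold between genotypes. Of 10 further genes of NAD synthesis, 9 were tested and 0 passed in either genotype against wild-type with edgeR, DESeq2 or limma-voom, with 0 and 1 at an unadjusted p under 0.05 in Dp16-2xIFNRs and Dp16. Nmrk1, the nicotinamide riboside kinase, had log2 fold changes of -0.67 (SE 0.43, adjusted p = 0.654) in Dp16-2xIFNRs and -0.96 (SE 0.431, adjusted p = 0.949) in Dp16 livers. Of 17 genes that use NAD or clear nicotinamide, all tested, 0 passed with any of these tools and 1 in each genotype had an unadjusted p under 0.05. The same held for the 4 transaminases that form kynurenic acid (0 and 1 unadjusted) and 11 tested genes of tryptophan uptake and the serotonin branch (1 and 0 unadjusted). Of 12 genes that interferon gamma induces, all tested, 0 passed with these tools (3 and 2 unadjusted), with medians of 0.07 in Dp16-2xIFNRs and 0.03 in Dp16 livers.

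The summed level of pericentral markers, which mark hepatocytes around the central vein, is given beside Acmsd as a description. The 10 pericentral markers summed to 6940 to 8020 CPM in Dp16-2xIFNRs, 5610 to 8220 CPM in Dp16 and 8480 to 11100 CPM in wild-type livers. Both chromosome 16 genotypes lay below every wild-type library, with no share of like sums that part in this way beside it. With edgeR 0 of the 10 passed alone. At an unadjusted p under 0.05 there were 7 in Dp16-2xIFNRs and 6 in Dp16, beside 8.66% and 4.87% of all genes. DESeq2 called 3 and 2 of the 10, beside 127 and 72 of 15198 genes. The median log2 fold changes of the 10 were -0.49 in Dp16-2xIFNRs and -0.47 in Dp16. The 10 periportal markers had medians of 0.21 and 0.16, and their sums overlapped, at 59500 to 115000 CPM in Dp16-2xIFNRs, 74500 to 106000 CPM in Dp16 and 69600 to 104000 CPM in wild-type livers. Of these 10, 0 passed with edgeR or DESeq2 (3 and 2 unadjusted). Of 12 glucocorticoid-induced genes, 0 passed with edgeR (3 and 4 unadjusted, 2 and 0 with DESeq2), with medians of 0.29 and 0.30. Igfbp1, an insulin-like growth factor binding protein, had 1.52 (SE 0.346, adjusted p = 0.117) and 1.23 (SE 0.345, adjusted p = 0.381). Tat, the tyrosine transaminase, had 0.50 (SE 0.204, adjusted p = 0.529) in Dp16-2xIFNRs and 0.70 (SE 0.205, adjusted p = 0.451) in Dp16. Of the 12, 10 had a positive value in each genotype, while Fkbp5, a co-chaperone of the glucocorticoid receptor, had -0.54 (SE 0.289, adjusted p = 0.612) and -0.09 (SE 0.289, adjusted p = 0.999). The 14 clock genes had medians of -0.80 and -0.52, and 0 passed with edgeR (3 unadjusted in each, 0 and 1 with DESeq2). Erythroid markers, 5 genes, summed to 89.9 to 323 CPM in Dp16-2xIFNRs, 13.2 to 412 CPM in Dp16 and 50.2 to 188 CPM in wild-type livers, with medians of 2.03 and 1.40, 0 passed with edgeR, 4 and 2 unadjusted, and 2 and 1 called by DESeq2. The part of zonation, hormone state or time of day in the Acmsd difference was not tested.

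The other genes around Acmsd gave no call between genotypes. Of 24 genes annotated to start within 500 kb of it, 7 were tested: Gm8451, 2900009J06Rik, Ccnt2, Rab3gap1, Zranb3, Rpl28-ps1 and R3hdm1. Against wild-type, 0 passed with edgeR, and R3hdm1 was the one with an unadjusted p under 0.05, at -0.67 in Dp16-2xIFNRs (SE 0.282, adjusted p = 0.542) and -0.04 in Dp16 (SE 0.281, adjusted p = 0.999). In GENCODE M21, the antisense gene 2900009J06Rik, at chr1:127753616-127774092, shares 94 bases of exon with Acmsd, 3.3% of the exonic length of Acmsd. The libraries were strand-specific, but the sources used here do not give the strand setting of the counting, so reads of that stretch may count for either gene. It had 0 to 141 counts per library beside 572 to 3957 for Acmsd, and log2 fold changes of 1.57 (SE 0.784, adjusted p = 0.596) in Dp16-2xIFNRs and 0.76 (SE 0.777, adjusted p = 0.999) in Dp16 livers against wild-type. It was higher in males (2.68, SE 0.662, adjusted p = 0.017, edgeR), as Acmsd was.

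Several members passed between the sexes, a contrast on which Acmsd was not selected. Male livers had more transcript of 4 of the 9 members, Acmsd, Tdo2, Kynu and Kmo, and no member passed in the other direction. Over all genes, 6.56% passed this test (998 of 15208, 518 higher and 480 lower in males). The members' median log2 fold change was 0.31, beside -0.02 over all genes. All 4 kept their call in each of the 18 fits that left out 1 library.

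In the 9 males, Tdo2 had a lowest, median and highest value of 1029, 1406 and 1674 CPM. The 9 females had 452, 677 and 1004 CPM. The sexes did not overlap, which is a description with no share of all genes beside it. The log2 fold change of Tdo2 was 0.97 (1.97-fold, SE 0.151, adjusted p = 0.00023, edgeR). Within genotypes it was 0.88 (SE 0.264) in Dp16-2xIFNRs, 1.21 (SE 0.266) in Dp16 and 0.83 (SE 0.264) in wild-type livers.

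Acmsd had 17.8, 71.5 and 116 CPM in males and 11.5, 19.8 and 49.0 CPM in females, with overlap across genotypes. In the fit with genotype as a term, its log2 fold change was 1.28 (2.44-fold, SE 0.209, adjusted p = 0.000392, edgeR). Males over females, it was 1.93-fold in Dp16-2xIFNRs, 4.27-fold in Dp16 and 1.76-fold in wild-type livers, with SE on the log2 scale of 0.285, 0.294 and 0.285. Males and females did not overlap in Dp16-2xIFNRs or Dp16 livers, and in wild-type livers 1 male lay below 1 female. This too is a description, with no share of all genes beside it.

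Kynu was 1.42-fold higher in males (log2 0.51, SE 0.103, adjusted p = 0.00319, edgeR), at 155, 185 and 220 CPM in males and 97.5, 137 and 161 CPM in females. In CPM, males lay above females in each genotype: 166 to 220 over 140 to 161 CPM in Dp16-2xIFNRs, 181 to 216 over 125 to 137 CPM in Dp16, and 155 to 185 over 97.5 to 141 CPM in wild-type livers. Kmo was 1.35-fold higher (log2 0.44, SE 0.0938, adjusted p = 0.00577, edgeR), at 210, 249 and 306 CPM in males and 163, 188 and 238 CPM in females. In CPM it also parted the sexes without overlap within each genotype. In RPKM the Dp16 sexes overlapped for Kmo, at 42.51 to 59.63 in males and 44.97 to 55.14 in females. The Dp16-2xIFNRs sexes overlapped for Kynu, at 33.12 to 44.35 RPKM in males and 28.18 to 33.89 RPKM in females. These separations are a description, with no share of all genes beside them. On log2 RPKM plus 0.1 with limma, which omits TMM scaling, the Kmo call was lost (adjusted p = 0.0835), and the median of all genes moved by -0.13. Relative to that median, Kmo stood at 0.46.

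Qprt was 1.24-fold higher in males but missed the threshold (log2 0.31, SE 0.1, adjusted p = 0.0743, edgeR), and DESeq2 called it (adjusted p = 0.00788). Its ranges were 184 to 235 CPM in males and 137 to 217 CPM in females. Haao (0.16, SE 0.195), Ido2 (0.08, SE 0.191), Nampt (-0.08, SE 0.237) and Afmid (-0.10, SE 0.135) did not pass either. Over 30 other settings the sign turned in 5 for Ido2 (-0.20 to 0.23), in 2 for Nampt (-0.28 to 0.08) and in 1 for Haao (-0.01 to 0.38).

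**Figure D4:**
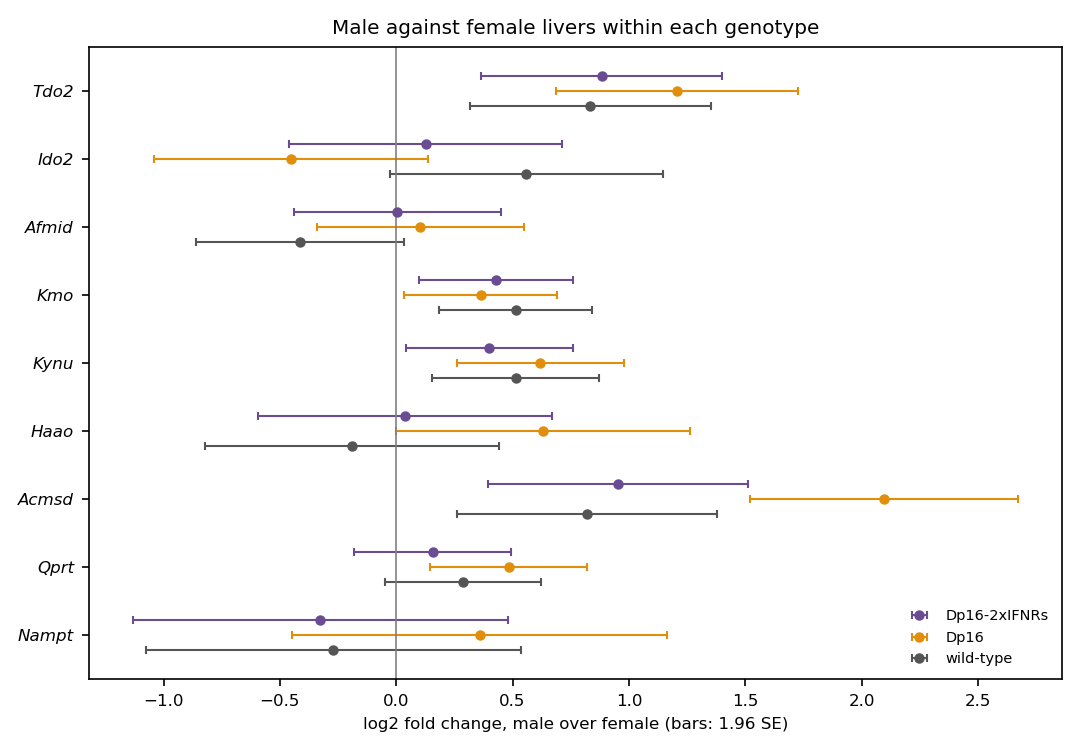
Log2 fold change of male over female livers for the 9 tested members within each genotype, with bars of 1.96 SE from the edgeR fit with genotype by sex terms. Acmsd, Tdo2, Kynu and Kmo lie above 0 in all 3 genotypes, and Acmsd in Dp16 stands farthest out, at 4.27-fold.

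The lists around the members were counted between the sexes in the same way. Over all genes, 6.56% passed with edgeR and 18.8% had an unadjusted p under 0.05. Of the 4 transaminases of the kynurenic acid branch, Aadat, which encodes the kynurenine transaminase KAT II, was higher in males (log2 1.22, SE 0.122, adjusted p = 9.37e-07, edgeR), and the other 3 did not pass. Of 17 genes of NAD use and nicotinamide clearance, 2 were higher in males, the aldehyde oxidases Aox3 (1.89, SE 0.228, adjusted p = 1.2e-05) and Aox1 (0.80, SE 0.204, adjusted p = 0.0201). These enzymes turn N-methylnicotinamide into pyridones. Of 11 tested genes of tryptophan uptake and the serotonin branch, Maob, the monoamine oxidase B, was lower in males (-0.72, SE 0.134, adjusted p = 0.00152). Of the 8 glutarate branch genes and the 9 tested genes of NAD synthesis outside the members, 0 passed with edgeR, DESeq2 or limma-voom, with 0 and 3 at an unadjusted p under 0.05.

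**Figure D5:**
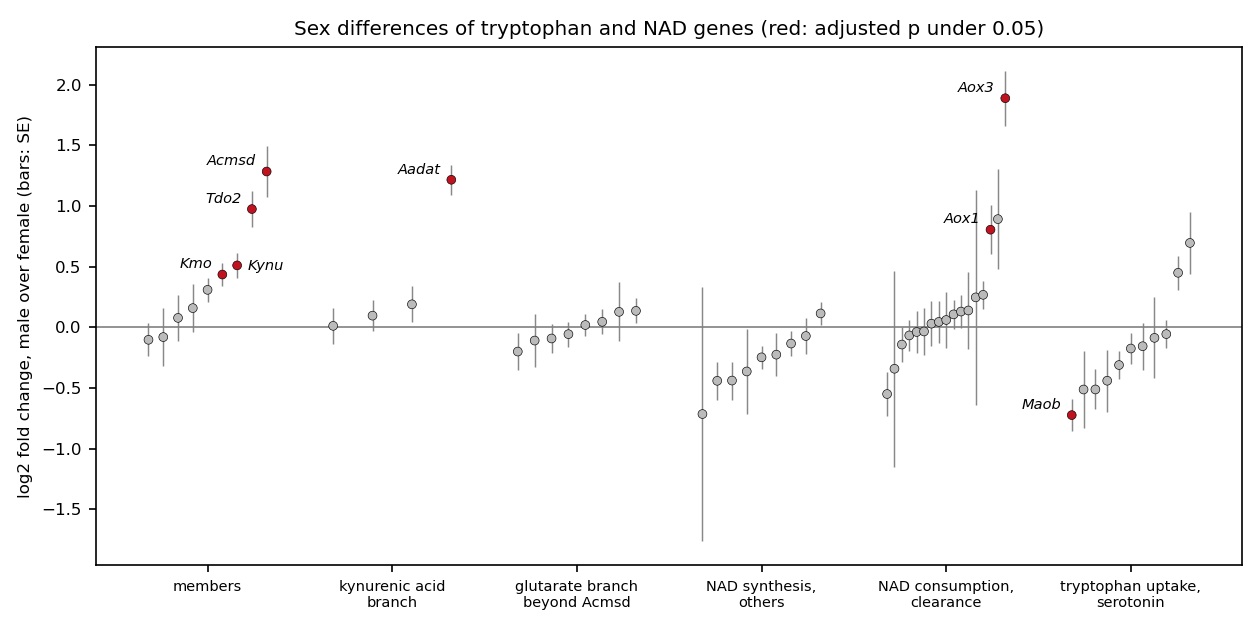
Log2 fold change of male over female livers with SE for the tested genes of 6 lists around tryptophan and NAD, over all 18 libraries. Red points passed the edgeR test: Acmsd, Tdo2, Kynu and Kmo among the members, Aadat, Aox3 and Aox1 above 0, and Maob below 0.

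Among the regulators listed for hepatocytes, 3 of 13 passed between the sexes with edgeR, 4 with DESeq2 and 1 with limma-voom, beside 6.56% of all genes with edgeR. Over all genes, DESeq2 called 1535 of 15198 and limma-voom 1087 of 15208, and 18.8% had an unadjusted p under 0.05 with edgeR. Ahr, the aryl hydrocarbon receptor to which kynurenine metabolites can bind, was lower in males (-0.87, SE 0.2, adjusted p = 0.00966). Ppargc1a, a coactivator of mitochondrial genes, was also lower (-0.67, SE 0.195, adjusted p = 0.0446), and Onecut1, a liver transcription factor, was higher (1.96, SE 0.506, adjusted p = 0.0227). Of 7 tested targets of Ahr, Nqo1 was lower in males (-1.07, SE 0.24, adjusted p = 0.00806) and the others did not pass. Of 12 glucocorticoid-induced genes, 3 were lower in males, the metallothioneins Mt1 and Mt2 (-4.15 and -4.26) and Fkbp5 (-1.57). Erythroid markers summed to 149 to 412 CPM in males and 13.2 to 169 CPM in females. Of these 5 markers, 1 was higher in males with edgeR, and DESeq2 and limma-voom called 1 each. Hepatocyte markers summed to 82100 to 118000 CPM in males and 75400 to 133000 CPM in females. Of these 5, 1 was higher and 1 lower in males with edgeR, while DESeq2 called 3 and limma-voom 2. All 7 stellate cell markers had a negative log2 fold change (median -0.42; 0 passed with edgeR, 4 unadjusted, 3 with DESeq2 and 2 with limma-voom), with sums of 166 to 329 CPM in males and 239 to 354 CPM in females. All 5 B cell markers did too (median -0.81; 0 passed with edgeR, DESeq2 or limma-voom, 1 unadjusted), with sums of 2.49 to 37.3 CPM in males and 4.74 to 54.9 CPM in females. Negative values were not particular to these 2 lists. They held for 9 of 9 Kupffer cell, 6 of 7 bile duct and gallbladder and 5 of 6 endothelial markers. The same was true of 6 of 8 monocyte and neutrophil and 6 of 8 T and NK cell markers. The 6 dendritic cell markers were split, with 3 negative and 3 positive. In these lists 0 passed with edgeR. Their part in the sex differences was not tested.

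The genes whose levels most resembled Acmsd were found by Pearson's r of log2 CPM over the 18 libraries, among 10409 genes. The points share their libraries, and sex and genotype act on both genes, so the values describe likeness only. The 5 nearest were Sdsl (0.89), Cfap298 (0.88), Spin1 (0.87), Gm12909 (0.87) and C9 (0.87). Cfap298 lies on chromosome 16, at chr16:90925809-90935114. Its log2 fold changes against wild-type were 0.77 in Dp16-2xIFNRs (SE 0.174) and 0.65 in Dp16 (SE 0.174), as a description. After group and sex were taken out, C9, a terminal complement component, had an r of 0.845 and Sdsl, a serine dehydratase-like enzyme, 0.69, with 0.50 for Cfap298 and Spin1 and 0.57 for Gm12909. Among the members, Kynu (0.83, rank 13) and Tdo2 (0.82, rank 15) stood closest to Acmsd, Qprt followed at 0.58, and Ido2 was the lowest at -0.40.

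Sdsl had log2 fold changes of 1.13 in Dp16-2xIFNRs (SE 0.226) and 0.80 in Dp16 (SE 0.227), both against wild-type, and 0.50 in males against females (SE 0.185). C9 had 0.70 (SE 0.171) and 0.35 (SE 0.171) in the same genotypes, and 1.66 in males against females (SE 0.144). These genes were picked for likeness to Acmsd, so their values in the genotype and sex comparisons are a description.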

How the data were processed

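The authors deposited whole-number read counts per gene and RPKM values, which the file shows to be those counts divided by gene length and column total. Per the submitters' processing notes, HISAT2 2.1.0, SAMtools 1.5 and HTSeq 0.6.1 were used with GRCm38; the sources used here give neither their roles nor the strand setting. Counts were tested with edgeR 4.0.16 (R 4.3.3; quasi-likelihood, robust, TMM, filterByExpr, terms for genotype and sex over all 18 libraries; genotype by sex in a second fit), adjusted by Benjamini-Hochberg over 15208 genes. CPM used the total over tested genes and the TMM factor. SE is the fold change over the root of F. Alternatives were DESeq2 1.42.0, limma 3.58.1 (voom, and log2 RPKM with 0.1 or 1 added) and others, 34 settings in all. The fit was tested on simulated data. The members and lists were chosen with earlier results of these data known. Genes named are all members, up to 4 genes a list that passed or else some of the 2 with the smallest p as values, tested genes within 500 kb of Acmsd and the 5 genes most like it; Aldh8a1 and the receptor were named outside this rule. Promoters of 4 members are not reported here.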

Additional observations from a re-analysis of the deposited data

How the results depend on the processing

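For Dp16-2xIFNRs against wild-type, the count of members called was 1 (Acmsd) and fell to 0 with no sex term, in males alone and in females alone. Leaving out 1 library gave 0 to 1, with Acmsd lost in 6 of 18 such fits (without wild-type 1, 2, 3, 4 or 5 or Dp16-2xIFNRs 4). Acmsd was chosen on this call, so these counts describe how the call depends on the settings and are no check of it. The Acmsd log2 fold change in this comparison was 1.38 to 1.73 over all settings. For Dp16 against wild-type the count was 0 and became 1 (Acmsd) with DESeq2 and with limma on log2 RPKM plus 0.1 or plus 1; leaving out 1 library gave 0 throughout. The Acmsd log2 fold change there was 1.79 in males alone and 0.50 in females alone. For Dp16-2xIFNRs against Dp16 and the genotype by sex terms, leaving out 1 library gave 0 throughout. For male against female, the count was 4, with 5 by DESeq2 and 3 with no low count filter or log2 RPKM, and 4 without any 1 library. No value that passed changed sign. The causes were not tested. Sample numbers did not pair libraries (r over 0.1 in 6 of 18 pairs, -0.245 to 0.36); with the replicate number as a block the counts of members were 1, 0, 0 and 4, and 0 for the terms. With the number of the sample description as a random block (limma-voom) the counts of members were the same, and all genes called against wild-type were 66 for Dp16-2xIFNRs and 15 for Dp16. All genes called with DESeq2 were 127 and 72 against wild-type for Dp16-2xIFNRs and Dp16, beside 15 and 6 with edgeR.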
